A study of Homo sapiens with 12 samples.

Results

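The genes described here are 10 markers and regulators of epithelial and mesenchymal identity. They are the adhesion molecules CDH1, CDH3 and EPCAM, the intermediate filament gene VIM, the transcriptional repressors ZEB1, SNAI1 and SNAI2, the epithelial transcription factor GRHL2, and the splicing regulators ESRP1 and ESRP2. They were taken by name and matched through their Ensembl identifiers, and all 10 were found among the 12584 complete genes of the deposited count table. The table was analysed only in part, so that genes with later Ensembl identifiers, HOXC6, CDH2, KRT8 and KRT19 among them, were not analysed here, and the forced expression of HOXC6 could not be checked in these counts.

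RNA was sequenced from A549 and PC9, established human cell lines of non-small cell lung cancer. Each line carried either a lentiviral vector with the HOXC6 coding sequence (A549-HOXC6, PC9-HOXC6) or the empty pCDH-NEO vector (A549-NEO, PC9-NEO), and each of these 4 groups had 3 replicate libraries. All 4 groups had therefore been infected and selected with neomycin, the sources used here do not say whether single clones were grown out, and no uninfected cells were analysed here. The homeobox gene HOXC6 encodes a transcription factor, and the study asked what its overexpression does to growth, migration and gene expression. Cells that migrate often shift from epithelial to mesenchymal identity, and the comparisons below ask whether the usual markers of such a shift moved with HOXC6 in these lines. Migration itself was not measured in these libraries.

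Epithelial cells hold to their neighbours through E-cadherin, and in an epithelial-mesenchymal transition they lose these contacts and gain a cytoskeleton rich in vimentin. ZEB1, Snail (SNAI1) and Slug (SNAI2) bind E-box sequences and repress CDH1 and other epithelial genes, while GRHL2 opposes ZEB1. ESRP1 and ESRP2 keep many transcripts in their epithelial splice form and are themselves targets of ZEB1. Lung carcinoma lines are known to sit at different points between these states.

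The libraries held 1212053 to 3286577 counts over the genes of the table, with a median of 2156966. Levels are given below as CPM (reads of a gene relative to the reads of its library over the analysed genes of the table). The genes that were not analysed are missing from that total. The CPM were scaled over all 12 libraries by the trimmed mean of M-values (TMM). A level of 3 counts, taken as the floor of detection, corresponded to 0.914 to 2.56 CPM per library. A549-HOXC6 replicate 3 stood somewhat apart from its group, with a chi-square per degree of freedom of 4.41 and 3.23 against replicates 1 and 2, where the other pairs of replicates gave 1.59 to 2.85, and with the lowest TMM factor (0.901). The A549 results of CDH1, ZEB1 and VIM, and the differences between lines of CDH1 and ZEB1, are therefore also given without it. The carcinoma keratin KRT7 was at 4652 to 8203 CPM and KRT18 at 1167 to 5913 CPM in the 4 group means, and 4 of the 6 carcinoma markers could be checked. Of the other carcinoma markers checked, CDH1 was at 139 to 472 CPM and EPCAM at 5.30 to 196 CPM. EPCAM was at only 5.75 and 5.30 CPM in A549-NEO and A549-HOXC6. All 7 fibroblast markers were in the table and summed to 19.9 to 87.5 CPM, with DCN, LUM and COL1A2 at 0 or 1 count in every library, and PTPRC, the pan-leukocyte marker, reached at most 4 counts. In such bulk samples, fewer cells of a kind and less RNA per cell cannot be told apart.

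The 2 lines started far apart in most genes of this set. Of the 9 genes tested between the control groups, VIM and ZEB1 were higher in A549-NEO and CDH1, CDH3, EPCAM, GRHL2, ESRP1 and ESRP2 were higher in PC9-NEO, all 8 with an adjusted p under 0.05 and more than a 2-fold difference. Only SNAI1 among the tested genes did not pass. The lines differed widely in general: 72.7% of the 9076 genes tested passed an adjusted p of 0.05 in this comparison, 36.9% higher and 35.7% lower in A549-NEO, and with the 2-fold threshold 19.6% were higher and 16.4% lower. VIM, GRHL2 and ESRP1 held under 10 reads in each library of 1 line and entered the test through the other. CDH3 and ESRP2 also entered through PC9-NEO, having 20, 7 and 17 and 7, 8 and 10 reads in A549-NEO. ZEB1 was low in PC9-NEO, at 15, 12 and 9 reads. The count and median over these genes are therefore a description. The median log2 difference (A549-NEO minus PC9-NEO) was -5.03 over the 9 genes and 0.02 over all genes tested. All tests across genes were edgeR quasi-likelihood tests with Benjamini-Hochberg adjustment over every gene tested.

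VIM, which encodes the intermediate filament protein vimentin, stood far apart between the lines. It lies on chromosome 10 (17270240 to 17279592, + strand, GRCh37) and has 10 exons. Its level was 2292, 2318 and 2252 CPM in the A549-NEO libraries and 2.70, 4.02 and 2.54 CPM in the PC9-NEO libraries, a 754-fold difference (log2 9.56, adjusted p = 2.64e-40). In PC9-NEO this was 5, 8 and 6 reads per library, so that VIM entered the test through A549-NEO and its adjusted p is a description. Antisense transcripts overlap 1275 bp of its exons, and the counting was not stated to use strand, so that their reads cannot be told apart from those of VIM.

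ZEB1, a zinc finger repressor that binds E-boxes, was the other gene higher in A549-NEO. It lies on the same chromosome (31607424 to 31818742, + strand), with 396 bp of its exons overlapped by antisense transcripts. The levels were 39.1, 41.7 and 49.8 CPM in A549-NEO against 8.09, 6.03 and 3.81 CPM in PC9-NEO. All A549-NEO libraries lay above all PC9-NEO libraries, as in 36.3% of the genes tested, and the difference was 7.62-fold (log2 2.93, adjusted p = 2.20e-13).

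The promoter windows that RefSeq gave for these genes are shown because the ZEB and Snail repressors bind the E-box core CAGGTG. Each window runs from 250 bases before to 50 bases after a transcript start in GRCh38.p14, a later build than that of the counts. For VIM the window is chr10:17227991-17228290, + strand. For ZEB1, with 7 windows, the one with most matches is shown, chr10:31318966-31319265, + strand. Capitals mark CAGGTG or its reverse complement CACCTG.
VIM: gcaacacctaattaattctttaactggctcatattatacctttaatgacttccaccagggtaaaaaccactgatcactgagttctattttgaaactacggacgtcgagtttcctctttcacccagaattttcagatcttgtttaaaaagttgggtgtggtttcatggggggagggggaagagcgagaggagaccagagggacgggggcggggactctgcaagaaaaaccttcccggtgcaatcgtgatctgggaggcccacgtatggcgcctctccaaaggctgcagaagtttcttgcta
ZEB1: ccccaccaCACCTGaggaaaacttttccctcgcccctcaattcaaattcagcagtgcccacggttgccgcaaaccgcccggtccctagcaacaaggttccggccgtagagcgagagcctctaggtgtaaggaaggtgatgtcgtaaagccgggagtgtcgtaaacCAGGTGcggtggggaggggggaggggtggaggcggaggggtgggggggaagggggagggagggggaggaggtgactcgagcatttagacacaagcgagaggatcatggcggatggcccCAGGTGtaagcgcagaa
The VIM window held neither form. The ZEB1 window held 3, with first bases at -242, -85 and 34 relative to the start, and 1 other ZEB1 window held 1 match, at -57. Either form of these letters occurred in 20.6% of 35116 windows of this length, and the looser E-box CANNTG, of which these are special cases, in 68.7%. A match of letters is a description and not a binding site.

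The adhesion genes were higher in PC9-NEO, by very different amounts. CDH1, which encodes E-cadherin, was at 182, 190.1 and 177 CPM in A549-NEO and at 387, 386 and 372 CPM in PC9-NEO, a 2.03-fold difference (adjusted p = 2.30e-15). A549 cells, with abundant vimentin, thus kept a clear E-cadherin transcript level. CDH3, which encodes P-cadherin, lies 9823 bases before CDH1 on chromosome 16 and on the same strand, and differed far more: 6.93, 2.81 and 6.67 CPM in A549-NEO against 288, 233 and 252 CPM in PC9-NEO, or 44.8-fold. EPCAM, an adhesion molecule of the epithelial surface on chromosome 2, was at 6.93, 5.61 and 4.71 CPM against 183, 205 and 199 CPM, or 32.6-fold. In none of the 3 adhesion genes did the libraries of the lines overlap, where 38.2% of the genes tested had all A549-NEO libraries below all PC9-NEO libraries.

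The epithelial regulators were at or near the floor of detection in A549-NEO. GRHL2, a grainyhead-like factor that activates epithelial junction genes, had no read in the 3 A549-NEO libraries and 331, 290 and 361 reads (179, 146 and 153 CPM) in PC9-NEO. With the floor of 3 counts in each A549-NEO library, it was at least 139.5-fold lower there. ESRP1 had 1 read in all of A549-NEO against 1378 reads in PC9-NEO (216, 230.2 and 220 CPM), a ratio of 1761 with a 95% counting interval of 316 to 69620, which covers counting error only. ESRP2, its paralog, was measurable in both lines at 2.42, 3.21 and 3.92 CPM in A549-NEO and 117, 106 and 111 CPM in PC9-NEO, or 33.7-fold.

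The 2 Snail family genes were low in both lines. SNAI1 was at 4.16, 12.03 and 7.06 CPM in A549-NEO and 7.01, 3.52 and 2.96 CPM in PC9-NEO, and the libraries overlapped (log2 0.83, adjusted p = 0.0711). It passed the threshold when A549-NEO replicate 1 (log2 1.17, adjusted p = 0.0190) or PC9-NEO replicate 1 (log2 1.26, adjusted p = 0.0214) was left out, and when GC content and exon length were corrected for, as described below (log2 1.10, adjusted p = 0.0165). SNAI2 had 0, 5 and 3 reads in A549-NEO and 6, 7 and 5 reads in PC9-NEO and was too low to be tested. All its A549-NEO libraries lay below all its PC9-NEO libraries, as in 38.2% of the genes tested. The level was 2.88 times lower in A549-NEO (95% counting interval 1.19 to 7.65, counting error only), the direction of the epithelial genes and not of VIM and ZEB1. Without the filter on low counts the difference did not pass (log2 -1.42, edgeR adjusted p = 0.0882).

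**Figure D1:**
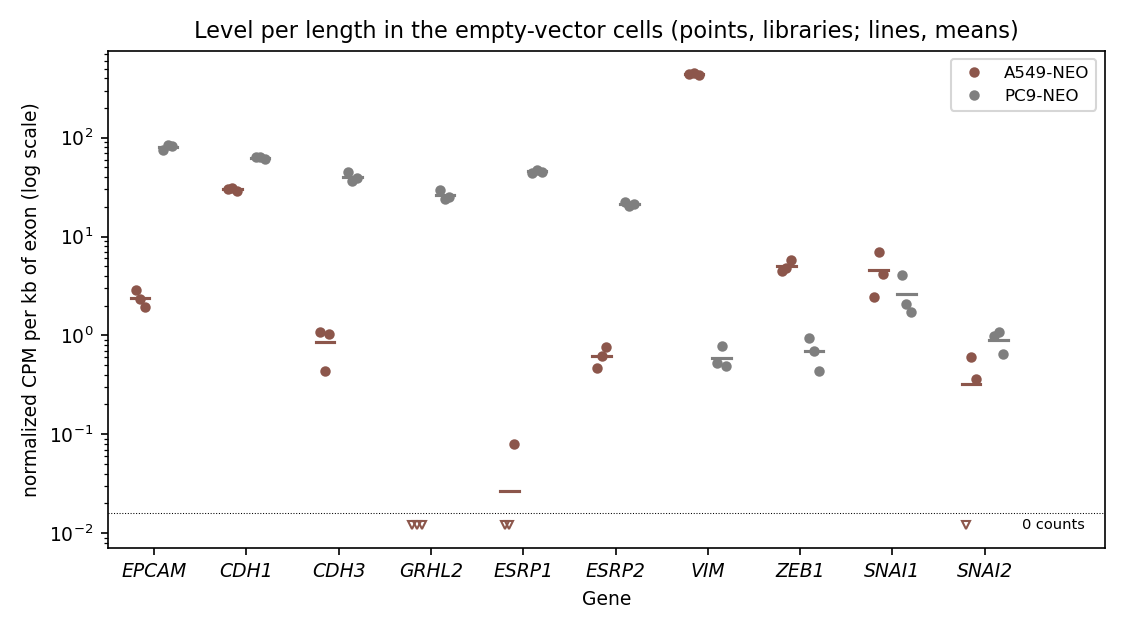
Level of the 10 genes in the control groups, as CPM per kb of exon on a log axis, with 1 point per library. The points of VIM and of the epithelial genes CDH3, EPCAM, GRHL2, ESRP1 and ESRP2 lie far apart between A549-NEO and PC9-NEO, those of CDH1 differ about 2.03-fold and those of SNAI1 overlap.

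Divided by exon length, the order of the genes could be compared within a line. In A549-NEO, VIM stood at 442 ± 6.43 CPM per kb (SD, n = 3), followed by CDH1 at 30.1 ± 1.09, ZEB1 at 5.03 ± 0.644, SNAI1 at 4.54 ± 2.34 and EPCAM at 2.37 ± 0.459. The ranges of the mean ± SD overlapped between ZEB1 and SNAI1 and between SNAI1 and EPCAM, as did those of CDH3 at 0.855 ± 0.361 and ESRP2 at 0.614 ± 0.144. In PC9-NEO, EPCAM led at 80.6 ± 4.74 CPM per kb, followed by CDH1 at 62.8 ± 1.37, ESRP1 at 45.6 ± 1.47, CDH3 at 40.3 ± 4.40, GRHL2 at 26.3 ± 2.86 and ESRP2 at 21.4 ± 1.11. The mean ± SD ranges of ESRP1 and CDH3 overlapped. The last places were held by SNAI1 at 2.64 ± 1.29, SNAI2 at 0.901 ± 0.226, ZEB1 at 0.691 ± 0.248 and VIM at 0.596 ± 0.157, the last 3 with mean ± SD ranges that overlapped between neighbours.

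With HOXC6, the genes of this set changed little in comparison with the distance between the lines. Among the 5 genes tested in A549, CDH1 and ZEB1 fell and none rose, and ZEB1 did not pass with the GC and length correction described below. In PC9, CDH1 and CDH3 rose and EPCAM and GRHL2 fell. Every one of these changes was smaller than 2-fold. CDH3 was too low to be tested in A549, where it went from 44 reads in A549-NEO to 9 in A549-HOXC6. Among all genes tested, 1.7% rose and 5.51% fell past both thresholds in A549, and 0.962% and 3.56% in PC9. VIM did not pass the test in A549 and was too low to be tested in PC9.

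**Figure D2:**
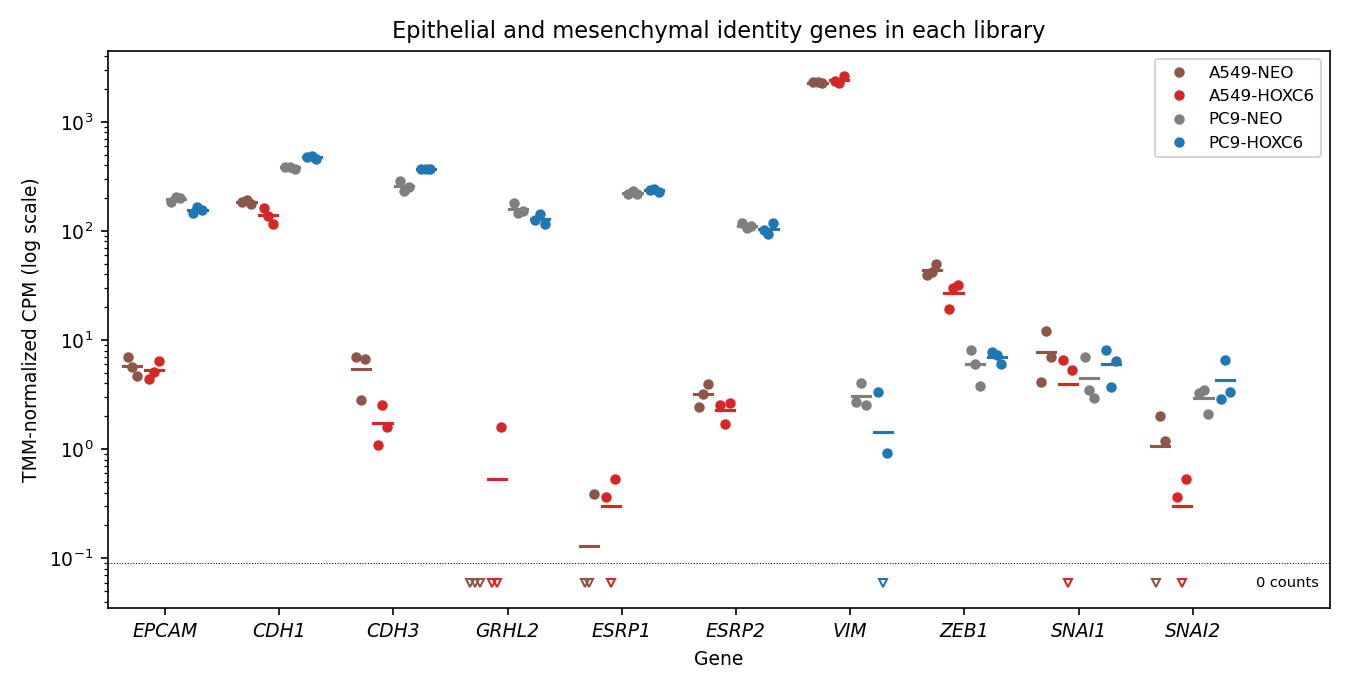
Level of each of the 10 genes in all 12 libraries, in TMM-scaled CPM on a log axis, with 1 point per library grouped by line and vector. Within a line the HOXC6 and NEO points lie close together for most genes, while VIM and the epithelial genes are separated by line.

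In A549, 5 of the 10 genes had enough reads to be tested, and 2 of these fell and none rose; among all 8771 genes tested, 39.6% passed, 20.7% lower and 18.9% higher. None of the 5 had a positive change at an unadjusted p under 0.05 in edgeR, and DESeq2 also gave 0 higher. The median log2 fold change was -0.43 over the 5 genes and -0.0005 over all genes tested. CDH1 was at 182, 190.1 and 177 CPM in A549-NEO and at 162, 138 and 117 CPM in A549-HOXC6. Every HOXC6 library lay below every NEO library, as did those of 23.6% of the genes tested (26.8% lay wholly above), and the log2 fold change was -0.43 (SE 0.111, adjusted p = 0.00305). It passed in each of the 6 fits that left out a library, at -0.59 to -0.29, the smallest fall (adjusted p = 0.0130) being that without A549-HOXC6 replicate 3, the library with the lowest CDH1. Antisense transcripts overlap 347 bp of the exons of CDH1, which has 16 exons on chromosome 16 (68771195 to 68869440, + strand, GRCh37).

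ZEB1, whose product represses CDH1, fell in the same A549 libraries. It was at 39.1, 41.7 and 49.8 CPM in A549-NEO and at 19.3, 29.9 and 32.0 CPM in A549-HOXC6, with no overlap (log2 fold change -0.78, SE 0.191, adjusted p = 0.00187). The fall passed in all 6 fits without a library, at -0.95 to -0.53, and stood at -0.95 without A549-HOXC6 replicate 3. It did not pass once the fold changes were corrected for GC content and length (-0.34, adjusted p = 0.174). In both lines, the fold changes with HOXC6 rose with the GC content of the exons, with a Spearman correlation of 0.531 across genes in A549 and 0.526 in PC9, genes not being independent replicates. The exons of ZEB1 have 41.3% GC, against a median of 48.0% over the genes tested. For CDH1, with 48.5% GC, the corrected value was -0.47 (adjusted p = 0.000220).

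VIM showed no detectable change in A549, and its high counts set narrow bounds on one. It was 2347, 2268 and 2623 CPM in A549-HOXC6, around the 2252 to 2318 CPM of A549-NEO, and the log2 fold change was 0.03 with a 95% interval of -0.09 to 0.16 (adjusted p = 0.718), and -0.014 without A549-HOXC6 replicate 3, its sign turning also under other scalings. EPCAM was at 4.36, 5.13 and 6.40 CPM with HOXC6 and did not pass (log2 -0.19, interval -0.97 to 0.59, adjusted p = 0.730). SNAI1 was at 6.54, 0 and 5.34 CPM with HOXC6, its 3 libraries spread widely, and it did not pass either (-0.74, interval -1.69 to 0.20, adjusted p = 0.227).

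The other 5 genes were too low in A549 to be tested. CDH3 had 20, 7 and 17 reads in A549-NEO and 3 reads in each A549-HOXC6 library, at the floor of detection. Its libraries did not overlap, the level was 3.57 times lower with HOXC6 (95% counting interval 1.72 to 8.32), and without the filter on low counts it passed (log2 -1.82, adjusted p = 0.0116). GRHL2 had 0, 0 and 3 reads with HOXC6 after 0 reads in A549-NEO, and ESRP1 had 1, 0 and 1 after 0, 0 and 1. ESRP2 had 7, 2 and 5 reads after 7, 8 and 10, and SNAI2 had 1, 0 and 1 after 0, 5 and 3. A gain of these epithelial regulators to the levels of PC9 was thus not seen, and smaller changes were not detectable at this depth.

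In PC9, 8 of the genes were tested, of which 2 rose and 2 fell; among all 8419 genes tested, 27.5% passed, 13.3% higher and 14.2% lower. The median log2 fold change was 0.16 over the 8 genes and -0.0046 over all genes tested. CDH3, the P-cadherin gene with 16 exons on chromosome 16 (68670092 to 68761371, + strand), showed the largest of the changes that passed. It was at 288, 233 and 252 CPM in PC9-NEO and at 369, 369 and 372 CPM in PC9-HOXC6 (log2 fold change 0.53, SE 0.0763, adjusted p = 4.51e-06). CDH1 was at 387, 386 and 372 CPM in PC9-NEO and at 474, 483 and 458 CPM in PC9-HOXC6 (0.30, SE 0.0653, adjusted p = 0.000691). For both cadherins all HOXC6 libraries lay above all NEO libraries, as they did for 19.5% of the genes tested. Corrected for GC content and length, CDH3 stood at 0.46 (adjusted p = 2.15e-05) and CDH1 at 0.28 (adjusted p = 0.00181). Both passed in all 6 fits without a library. The antisense gene CDH3-AS1 overlaps 537 bp of the exons of CDH3.

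The 2 genes that fell in PC9 were also epithelial. EPCAM, with 9 exons at 47572297 to 47614740 on the + strand of chromosome 2, was at 183, 205 and 199 CPM in PC9-NEO and at 147, 166 and 157 CPM in PC9-HOXC6 (-0.33, SE 0.0854, adjusted p = 0.00438). GRHL2, with 16 exons at 102504667 to 102681954 on the + strand of chromosome 8, was at 179, 146 and 153 CPM and at 126, 142 and 115 CPM (-0.33, SE 0.0988, adjusted p = 0.0120). In both genes every HOXC6 library lay below every NEO library, as in 20.4% of the genes tested. EPCAM passed in all 6 fits without a library. The call for GRHL2 was lost with DESeq2 (adjusted p = 0.0615), without PC9-NEO replicate 1 (0.0871) and without PC9-HOXC6 replicate 3 (0.132).

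The splicing regulators kept their high levels in PC9. ESRP1, with 16 exons at 95653302 to 95719694 on the + strand of chromosome 8, was at 216, 230.2 and 220 CPM in PC9-NEO and 236, 244 and 229 CPM in PC9-HOXC6, with overlapping groups (0.09, interval -0.06 to 0.24, adjusted p = 0.440). Its exons have 43.9% GC, and with the correction the change was 0.22 and passed (adjusted p = 0.0340). ESRP2, at 68262936 to 68272005 on the - strand of chromosome 16, was at 117, 106 and 111 CPM and at 101, 93.5 and 119 CPM (-0.06, interval -0.26 to 0.15, adjusted p = 0.729). Exons of NFATC3 on the opposite strand overlap 227 bp of ESRP2.

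VIM, ZEB1, SNAI1 and SNAI2 stayed low in PC9. VIM had 7, 0 and 3 reads with HOXC6 after 5, 8 and 6 in PC9-NEO, 2.06 times lower with a counting interval of 0.910 to 4.95 that includes no change. ZEB1 was at 7.71, 7.36 and 6.09 CPM with HOXC6 against 8.09, 6.03 and 3.81 CPM, and the groups overlapped (0.24, interval -0.51 to 0.99, adjusted p = 0.688). SNAI1, on the + strand of chromosome 20 (48599517 to 48605423), was at 8.19, 3.68 and 6.40 CPM against 7.01, 3.52 and 2.96 CPM (0.53, interval -0.31 to 1.37, adjusted p = 0.385). SNAI2, on the - strand of chromosome 8 (49830157 to 49834299), had 6, 9 and 11 reads against 6, 7 and 5 and was not tested. With HOXC6, VIM thus remained 1626 times lower in PC9 than in A549 (counting interval 884 to 3392).

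**Figure D3:**
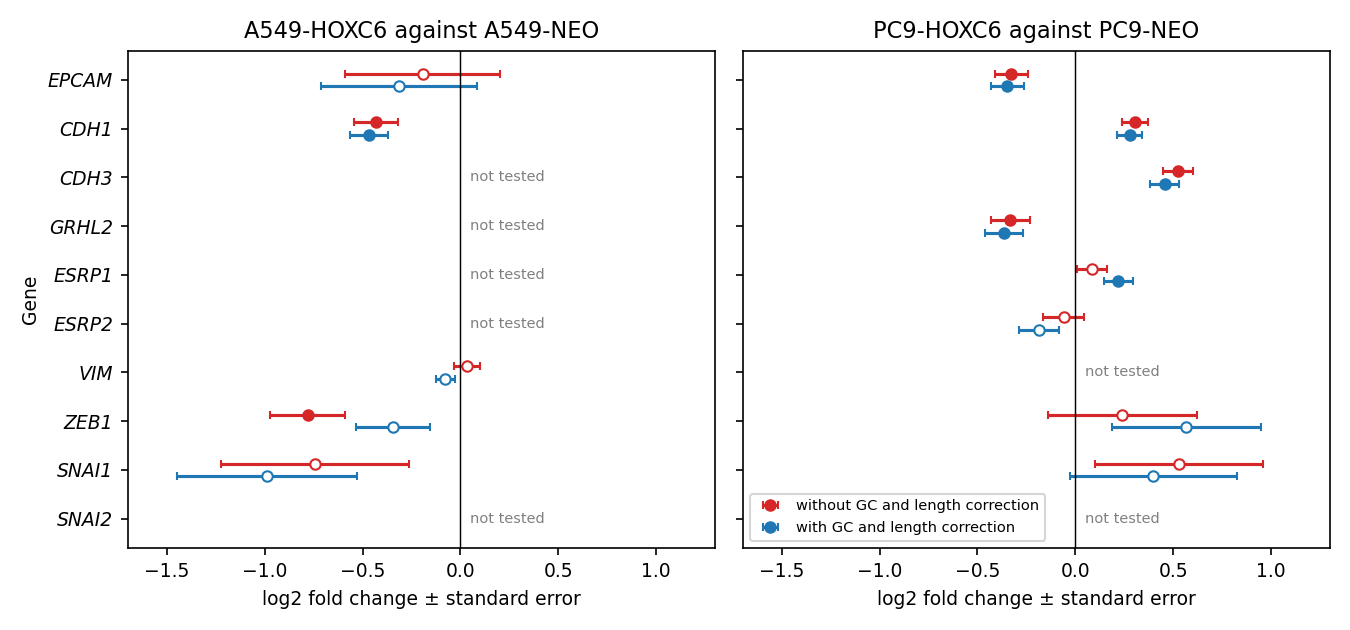
Log2 fold change of HOXC6 over NEO for each gene tested in A549 and in PC9, with bars for the standard error and a line at 0. Each gene has a point without and a point with the GC and length correction, filled where the adjusted p was under 0.05. Without the correction, CDH1 lies below 0 in A549 (-0.43) and above 0 in PC9 (0.30), and VIM in A549 lies at 0.03.

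CDH1 moved in opposite directions in the lines, and the difference itself passed the test. The interaction term, the log2 fold change in A549 minus that in PC9, was -0.69 for CDH1 (SE 0.129, adjusted p = 0.000121). Of the 9 genes in this test it was the only one that passed and had been tested in both lines, where 8.44% of all 9229 genes tested passed in this direction and 10.9% in the other. CDH3 was too low to be tested in A549, with 3 reads in each A549-HOXC6 library, and entered this test through PC9. Its fitted value of -2.32 (SE 0.463, adjusted p = 0.000281) is therefore given as a description, beside 2.38% and 2.76% of all genes that were past the 2-fold threshold as well, lower and higher. The other 7 did not pass, and their adjusted p ran from 0.0937 for ZEB1 to 0.792 for EPCAM. CDH1 passed in all 12 fits without a library, at -0.84 to -0.57, the latter without A549-HOXC6 replicate 3, and ZEB1 passed in that without A549-HOXC6 replicate 3 (-1.15, adjusted p = 0.0450).

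The wider neighbourhood of these genes was described with 4 further lists: 20 genes of epithelial junctions and polarity, 22 other epithelial factors and surface proteins, 18 other transcription factors of the transition with their corepressors and splicing factors, and 30 mesenchymal, matrix and contractile genes. Between the control groups, where 36.9% of all genes tested were higher and 35.7% lower in A549-NEO, 10 of the 15 junction genes tested were lower in A549-NEO and 4 higher, 14 of the 18 other epithelial genes were lower and 3 higher, and 15 of the 22 mesenchymal genes were higher and 4 lower. The median log2 differences of these lists were -0.99, -3.24 and 1.44. Several of these genes were below the floor of detection in A549-NEO (ST14 at 0.261 CPM, RAB25 at 0.134) or in PC9-NEO (VCAN at 0.503, FOXA2 at 0.681). Such genes entered the test through the other line, so that the counts and medians of the lists are a description. The transcription and splicing factors were split, with 4 of 10 higher in A549-NEO and 5 lower. The counts with HOXC6 can be read against the 39.6% of all genes that passed in A549 and the 27.5% in PC9.

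Of the junction and polarity genes in A549, 3 of 15 rose, 3 fell and 9 did not pass, a share close to that of all genes, with a median log2 fold change of -0.01. CTNNB1, the cadherin partner β-catenin, rose by 0.32 (adjusted p = 0.0181), the polarity gene LLGL2 by 0.34 (0.00433) and the Crumbs gene CRB3 by 1.36 (0.0178) from 2.75 to 7.70 CPM. The tight junction gene CLDN1 fell by 0.42 on the log2 scale (0.00373) and the polarity gene PARD6B by 0.78 (0.0226). In PC9, 7 of 15 rose, 2 fell and 6 did not pass, with a median of 0.10. The tight junction genes TJP3 and CLDN3 rose by 0.75 (adjusted p = 4.21e-08) and 0.64 (0.000129) there and CRB3 by 0.76 (0.00163), while TJP1 fell by 0.38 (0.0199) and MARVELD3 by 0.48 (0.0180). With the GC and length correction, 2 rose and 1 fell in A549 and 6 rose and 1 fell in PC9. CLDN1, CRB3 and PARD6B in A549 and TJP1 in PC9 then no longer passed, while CTNNB1 stood at 0.80 (adjusted p = 1.13e-09). The corrected medians were 0.01 and 0.20, beside 0.05 and 0.06 over all genes.

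Of the other epithelial genes, 3 of 13 rose and 1 fell in A549 (median 0.15) and 7 of 17 rose and 1 fell in PC9 (median 0.04, and -0.04 when scaled by library size only). The forkhead factor FOXA2 rose by 0.64 in A549 (adjusted p = 2.63e-05) and the receptor ERBB3 by 0.54 (0.0311), while CDS1 fell by 1.48 (0.0137). FOXA1, a pioneer factor of airway epithelium, rose by 0.70 in A549 (0.00805) and fell by 0.46 in PC9 (8.61e-05), and the difference passed (interaction 1.21, adjusted p = 3.03e-05). The epithelial factors ELF3 and KLF4 and the protease inhibitor SPINT1 rose in PC9 by 0.65, 0.50 and 0.51 (2.02e-07, 0.00633 and 7.02e-07). With the correction, 4 rose and none fell in A549, CDS1 no longer passing (adjusted p = 0.0663), and 6 rose and 1 fell in PC9, KLF4 no longer passing (0.0559). FOXA2 then stood at 0.42 in A549, and the medians at 0.24 and 0.21.

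The other transcription factors, corepressors and splicing factors gave 3 of 10 higher and 1 lower in A549 (median 0.10) and 4 of 9 higher and 1 lower in PC9 (median 0.20). SOX9, a developmental transcription factor, rose by 0.93 in A549 and by 0.55 in PC9 (adjusted p = 0.000112 and 9.11e-05). The histone deacetylase HDAC1 and the corepressor CTBP1 rose in A549 by 0.74 and 0.25 (3.41e-06 and 0.0417), and the demethylase KDM1A and the E-protein gene TCF3 rose in PC9 by 0.66 and 0.35 (9.37e-09 and 0.00110). The splicing regulators RBFOX2 in A549 and QKI in PC9 fell by 0.41 each (0.00544 and 0.0204). With the correction, 4 rose and none fell in A549 and 2 rose and none fell in PC9. RBFOX2 and CTBP1 in A549 and TCF3 and QKI in PC9 then no longer passed, and QKI stood at 0.16 and KDM1A at 1.002.

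Of the mesenchymal, matrix and contractile genes, 12 of 22 rose, 4 fell and 6 did not pass in A549 (median 0.33), and 10 of 19 rose, 3 fell and 6 did not pass in PC9 (median 0.40). Corrected for GC content and length, the counts were 10 higher and 1 lower in A549 and 10 higher and 2 lower in PC9. The medians were then 0.14 in A549 and 0.46 in PC9, beside 0.05 and 0.06 over all genes. FN1, the gene of the matrix protein fibronectin, rose in both lines, from 2485 ± 51.3 to 4658 ± 397 CPM in A549 (0.86, adjusted p = 7.57e-11) and from 1732 ± 119 to 3027 ± 99.0 CPM in PC9 (0.81, 4.35e-12; SD, n = 3). SPARC, which encodes a matrix glycoprotein and which the study had picked out from these samples, rose by 3.57 in A549 (6.22e-07), from 1.12 to 14.2 CPM. Its A549-NEO level lay at the floor of detection, so that SPARC entered the test through A549-HOXC6 and the size of its rise is uncertain. The receptor kinase AXL and the integrin ITGA5 rose by 0.73 and 0.70 in PC9 (4.12e-06 and 1.13e-07). WNT5A, a secreted Wnt ligand, rose by 1.20 in A549 (0.0488) and fell by 0.66 in PC9 (0.00690), and the difference passed (interaction 1.90, adjusted p = 0.00317). The actin regulator CALD1 fell by 0.74 in A549 (0.000117) and by 1.06 in PC9 (5.80e-06). The matrix proteoglycan VCAN and the smooth muscle actin ACTA2 fell by 1.34 and 0.41 in A549 (2.28e-11 and 0.00943), and CAV1 fell by 0.30 in PC9 (0.0128). With the correction, CALD1 and ACTA2 in A549 and WNT5A in PC9 no longer passed, and CALD1 stood at -0.67 in PC9.

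**Figure D4:**
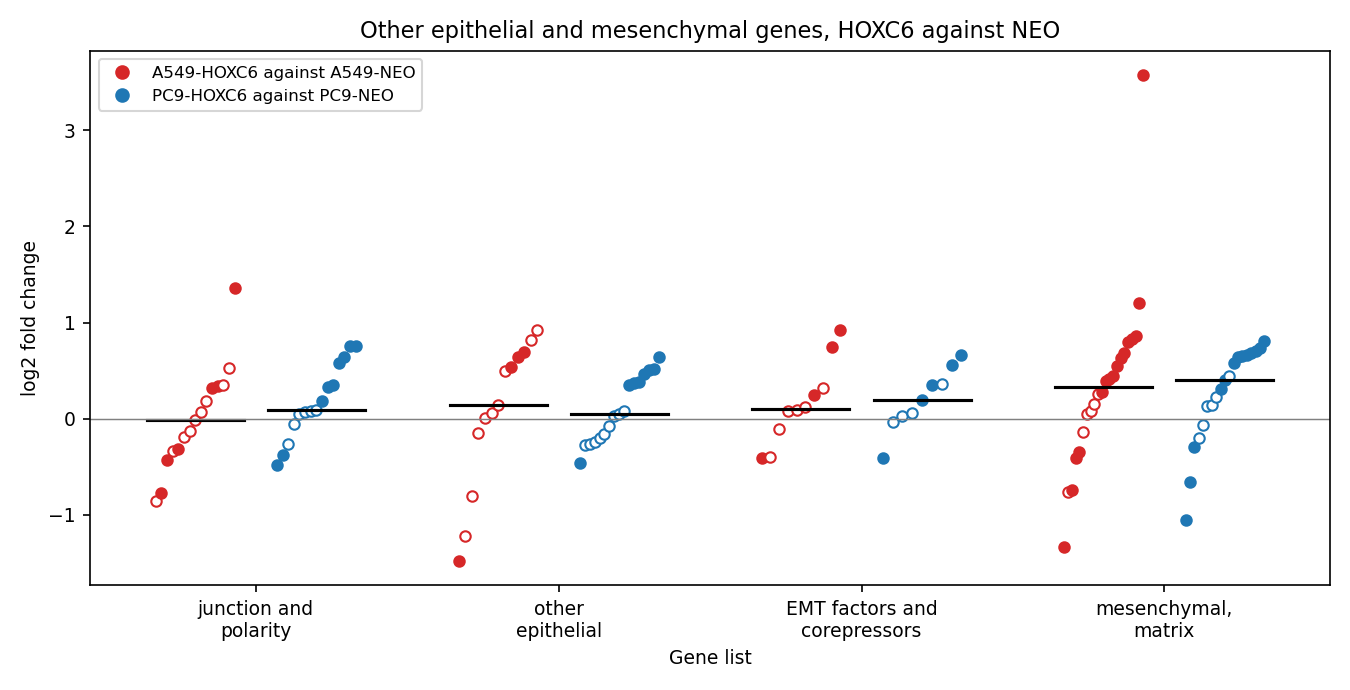
Log2 fold change of HOXC6 over NEO for every tested gene of the 4 further lists, in A549 and in PC9, with 1 point per gene. Most points lie within 1 of 0 in both lines, and the medians of the mesenchymal list are 0.33 in A549 (0.14 with the GC and length correction) and 0.40 in PC9.

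Several of the smaller changes among the named genes of the 4 lists depended on single libraries or on the method. Of the 19 named in A549, 9 lost their call in at least 1 fit without a library (ACTA2, CDS1, CRB3, CTBP1, CTNNB1, ERBB3, FOXA1, PARD6B and WNT5A, at adjusted p between 0.0502 and 0.202). Among these, CRB3, CTBP1, FOXA1, PARD6B and WNT5A lost it without A549-HOXC6 replicate 3, at adjusted p between 0.0686 and 0.151 in edgeR. Of the 19 named in PC9, 6 did so (CAV1, KLF4, MARVELD3, QKI, TJP1 and WNT5A, between 0.0556 and 0.176). FN1, SPARC, VCAN, SOX9 and HDAC1 in A549 and FN1, ITGA5, AXL, ELF3, TJP3 and KDM1A in PC9 passed in all of these fits. Apart from the GC and length correction, other methods, scalings or filters also removed the calls of 6 genes in A549 (CDS1, CRB3, CTBP1, ERBB3, PARD6B and WNT5A) and of 5 in PC9 (CAV1, MARVELD3, QKI, TJP1 and WNT5A), DESeq2 among them for each of these.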

How the data were processed

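RNA-seq libraries of the 4 groups, 3 replicates each, were analysed from the table the authors deposited, which holds raw counts of reads per Ensembl gene and no normalized values. Per the labels' processing notes and the study's methods, reads were converted with bcl2fastq 2.19, aligned with HISAT2 2.1.0 to the human genome GRCh37 and counted with HTSeq 0.9.1, and the authors compared groups with DESeq2. The last row of the table was incomplete and was left out. Gene positions, exon length and GC content came from GENCODE annotation lifted to GRCh37, in which 12463 of the 12584 genes were found.

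Here, edgeR 4.0.16 (R 4.3.3) was run on these counts with filterByExpr, TMM scaling and the quasi-likelihood test, on the 6 libraries of each line, on the 6 control libraries, and on all 12 for the difference between lines. Genes were called at an adjusted p under 0.05, or with a log2 fold change also above 1 or below -1. Intervals of fold changes are 1.96 standard errors wide on each side. GC content and length were corrected with smooth terms (mgcv 1.9.3), and DESeq2 1.42.0 was an alternative, with other scalings, filters, a common model, a replicate block and leaving out each library. The fits were tested on simulated data. The 10 genes and the 4 further lists were chosen with earlier results of these data known. From each list, up to 3 genes per direction and line were named, those with the largest fold changes among genes that passed, had groups that did not overlap and averaged at least 1 CPM. For the patterns nearest to CDH1, VIM and ZEB1, 3 genes each were named. Replicates bearing the same number did not deviate together (mean correlations 0.00798 in A549, 0.00720 in PC9 and -0.0106 between the control groups). The study calls its replicates independent without saying whether they were separate cultures, so p-values measure the spread between these libraries, which may be technical.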

Additional observations from a re-analysis of the deposited data

Results flagged for a closer look

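The response of CDH1 to HOXC6 differed between the lines by a log2 interaction of -0.69 (SE 0.129, edgeR adjusted p = 0.000121): all 3 A549-HOXC6 libraries lay below, and all 3 PC9-HOXC6 libraries above, their controls. After the GC and length correction the difference was -0.71. Without A549-HOXC6 replicate 3 it was -0.57. For CDH3 the fitted difference was -2.32 (SE 0.463, adjusted p = 0.000281), from 44 to 9 reads in A549 and from 1593 to 2489 reads in PC9. CDH3 was too low to be tested in A549 and entered this test through its PC9 libraries, and it was not kept where at least 10 counts were required in every library.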

How the results depend on the processing

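Of the values recomputed for counts of calls, 240 stayed within 1.5 times the main count and 20 did not. With at least 10 counts in every library, which removes low genes, the genes past both thresholds became 95 higher in A549 (from 149), 52 higher and 181 lower in PC9 (from 81 and 300), 1112 higher and 966 lower between the control groups (from 1779 and 1491) and 134 lower in the interaction (from 220), and of the 10 genes 0 were higher and 2 lower between the control groups and 1 was lower in the interaction. With the GC and length correction, 150 genes were lower in A549 (from 483) and 100 in PC9 (from 300), and 1 of the 10 genes was lower in A549; with the replicate block added these were 147, 101 and 1. DESeq2 left 1 of the 10 genes lower in PC9. The replicate block alone gave 150 higher and 493 lower in A549 and 83 and 293 in PC9, and it changed no call among the 10 genes. Leaving out 1 library gave 1 to 2 of the 10 genes lower in PC9 and 0 to 1 higher in the interaction. The latter were GRHL2 without A549-HOXC6 replicate 1 (4.51, edgeR adjusted p = 0.0381) and VIM without PC9-HOXC6 replicate 1 (2.23, 0.0182). GRHL2 entered the interaction through PC9, having 0, 0 and 3 reads in A549-HOXC6 and 0 in each A549-NEO library. VIM entered it through A549, having 7, 0 and 3 reads in PC9-HOXC6 against 5, 8 and 6 in PC9-NEO. Both values are therefore a description.

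Directions turned only for values near 0 that had not passed, and for QKI. VIM in A549 was -0.014 scaled by library size only, -0.079 with the GC and length correction, -0.081 with the block added, and -0.014 to 0.068 without 1 library. When 1 library was left out, ZEB1 in PC9 ran from -0.023 to 0.51, ESRP2 in PC9 from -0.17 to 0.011 and the EPCAM interaction from -0.0070 to 0.36. QKI in PC9 was 0.16 with the correction and 0.17 with the block added. Where no value of these fits shows it, the cause was not tested. Depth limits CDH3, EPCAM, GRHL2, ESRP1, ESRP2 and SNAI2 in A549 and VIM, ZEB1 and SNAI2 in PC9, where a library held at most 20 reads. SNAI1 was also low, with at most 30 reads per library in A549 and 21 in PC9.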

Other observations

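The genes whose log2 levels lay nearest to those of 3 of the 10 genes over the 12 libraries, each centred on its mean, were sought among 8758 genes. Nearest to CDH1 were ZXDC, NIPSNAP2 and MAP3K13, at root mean square log2 differences of 0.117, 0.128 and 0.130. ZXDC, for example, averaged 29.0 CPM in A549-NEO, 23.3 in A549-HOXC6, 70.2 in PC9-NEO and 78.7 in PC9-HOXC6. Nearest to VIM were CPLX2, CYP24A1 and NTRK3, at 0.789, 0.842 and 0.941. CYP24A1, the vitamin D 24-hydroxylase, averaged 7402 CPM in A549-NEO and 8.64 CPM in PC9-NEO. Nearest to ZEB1 were NPC1, RMC1 and FBXO22, at 0.272, 0.290 and 0.293. The points of a library share its depth and base composition, and the likeness is a description of these 12 libraries.

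The carcinoma markers summed to 7787 to 7997 CPM in A549-NEO and 9217 to 11590 CPM in A549-HOXC6, through KRT7 and KRT18, while CDH1 in the same list fell. In PC9 the sums were 10840 to 11660 CPM and 10700 to 10970 CPM. Of the blood cell markers, 2 of 5 were in the table, and they summed to 8.24 to 10.7 CPM in A549-NEO, 14.5 to 24.0 in A549-HOXC6, 6.47 to 13.1 in PC9-NEO and 10.96 to 14.9 in PC9-HOXC6. Nearly all of this was CD68, at 9.13 ± 1.39 CPM in A549-NEO and 18.4 ± 3.70 CPM in A549-HOXC6 (SD, n = 3), while PTPRC was at 0 in A549-NEO and reached 4 counts in 1 A549-HOXC6 library. The part of either marker list in the results above was not tested.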
